A study of Rattus norvegicus with 18 samples.

Results

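The genes described here are the matrix metalloproteinases (Mmp), the secreted proteases with thrombospondin repeats (Adamts), the protease-like proteins that lack a catalytic domain (Adamtsl) and the tissue inhibitors of metalloproteinases (Timp). Members were all rows of the count table whose symbol is Mmp, Adamts, Adamtsl or Timp followed by a number and that hold 10 or more counts in at least 3 of the 18 libraries. Of 41 such symbols, 35 were members, out of 17337 genes in the table: 16 of 21 Mmp, 12 of 13 Adamts, 3 of 3 Adamtsl and 4 of 4 Timp. All 35 also passed the low-count filter of the test, which kept 11814 genes. Below the minimum were Mmp1, which was 0 in every library, Mmp7, Mmp20, Mmp21, Mmp24 and Adamts19, none of which exceeded 31 counts in any library.

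The libraries come from wild-type rats with a critical-sized defect of the radius, a gap too large to heal unaided, that was filled with a 3D-printed scaffold. Each scaffold was made of polycaprolactone (PCL), a slowly degrading polyester. The CaP scaffold also carried calcium phosphate microparticles, the ACPC-NP scaffold carried nanoparticles of amorphous calcium phosphate and chitosan, and the PCL scaffold carried neither. Cells were released with collagenases, dispase and DNase from marrow and bone next to the implant, up to 1 mm from its ends, after lysis of red cells, and their polyadenylated RNA was sequenced. Each scaffold was sampled 2 and 6 weeks after implantation with 3 libraries, giving 6 groups. Strain, age and sex of the rats are not given in the labels, every group carries a PCL scaffold, and no group without an implant is in these data. The labels do not say whether the libraries of a group are separate animals, so the p-values measure the spread between libraries, which may be technical in part.

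Metalloproteinases are made as inactive proenzymes, and cleave the collagens, proteoglycans and glycoproteins of the extracellular matrix once their propeptide is removed. Timp proteins bind the active site and block it, and Timp2 also holds pro-Mmp2 at the cell surface so that Mmp14 can activate it. In healing bone these enzymes clear damaged and cartilaginous matrix, open paths for vessels and cells, and take part in resorption beside the cathepsins of osteoclasts. Their transcription is classically induced by inflammatory cytokines through the transcription factor AP-1.

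Members of the metalloproteinase cluster on rat chromosome 8 are shown because 4 of them, which lie in the order Mmp13, Mmp12, Mmp3 and Mmp10, carry the AP-1 word in their promoter and include 3 of the 6 members called at week 2. Of the other called members, Timp2 did not have the word in its promoter, and Mmp14 and Mmp19 had no promoter entry. The sequences are the 120 bases before the transcription start in RefSeq (build GRCr8, plus strand), 5′ to 3′, with the AP-1 word TGANTCA in capitals. The windows are chr8:12782709-12782828 for Mmp13, chr8:12866532-12866651 for Mmp12, chr8:12925161-12925280 for Mmp3 and chr8:12974587-12974706 for Mmp10.
Mmp13: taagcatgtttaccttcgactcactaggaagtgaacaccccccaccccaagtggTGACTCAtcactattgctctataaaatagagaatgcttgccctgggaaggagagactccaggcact
Mmp12: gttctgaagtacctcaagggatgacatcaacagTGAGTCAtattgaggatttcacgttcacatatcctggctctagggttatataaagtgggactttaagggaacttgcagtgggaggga
Mmp3: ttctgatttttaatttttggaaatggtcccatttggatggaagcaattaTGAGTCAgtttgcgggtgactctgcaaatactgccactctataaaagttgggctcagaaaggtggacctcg
Mmp10: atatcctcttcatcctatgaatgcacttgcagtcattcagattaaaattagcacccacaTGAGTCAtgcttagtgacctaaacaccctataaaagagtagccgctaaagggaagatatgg
The word starts 66 bases before the start of Mmp13, 87 before that of Mmp12, 71 before that of Mmp3 and 61 before that of Mmp10. TGANTCA reads the same on both strands. In windows of 250 bases before to 50 after the start, it was found in 4 of the 27 members with a RefSeq promoter (14.8%) and in 2453 of 33469 promoters of all genes (7.33%). The next members along the chromosome, Mmp8 and Mmp27, do not have it in that window. A second promoter word, TATAAA on either strand, was in 8 of the 27 (29.6%) and in 14.2% of all promoters. No promoter entry was used for Mmp2, Mmp9, Mmp14, Mmp16, Mmp17, Mmp19, Adamts5 and Adamts15. These matches describe the letters and were not tested as binding sites. The 4 genes are neighbours and were picked with the calls known, so the shares are no test of a link between the word and the calls.

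Total counts ran from 18880604 to 27186587 per library. Members together took 0.185% to 0.392% of a library's counts, and Mmp8 and Mmp9 made up 45.0% to 87.7% of that. Markers of the labelled tissue were present, with all 10 osteoblast markers and all 10 neutrophil markers detected. ACPC-NP week 2 replicate 3 stood apart: on the first principal component, with 26.1% of the variance, its value was 91.4 and the other 17 libraries ranged between -23.9 and 25.5. Its summed level of 11 immediate early and stress genes was 11240 CPM, counts scaled to a common library size, against 1265 to 3301 in the other libraries. The normalisation factor (TMM) of this library was 0.706, against 0.95 to 1.113 in the others. Its CPM values are thus scaled up relative to its total count. Counts of calls in comparisons that hold this library, and the values of most genes that led them, are given with and without it.

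Around ACPC-NP at week 2, several matrix-degrading enzymes were more abundant than around the other scaffolds: Mmp12, the macrophage elastase; Mmp14, the membrane-bound collagenase; Mmp19; the stromelysins Mmp3 and Mmp10; and the inhibitor Timp2. Against the CaP and PCL average, edgeR's quasi-likelihood test called 6 of 35 members higher and 0 lower (adjusted p under 0.05, Benjamini-Hochberg over all genes), by 1.37 to 3.70 on the log2 scale. Of all genes 4.99% were called in this comparison, 4.88% higher. DESeq2 called 7 members, the same 6 and Timp1. The 35 members did not shift together: 15 were above 0 and 20 below, with a median of -0.06 against -0.02 for all genes. In 8 members all 3 ACPC-NP libraries lay above all 6 CaP and PCL libraries, which 5.8% of all genes did. Without replicate 3 of ACPC-NP no member was called by edgeR, although 8 of 35 members had an unadjusted p under 0.05, where 6.89% of all genes did. In that fit 10 of 11943 genes were called. In that fit 19 members were above 0 with a median of 0.14, and Adamts2, Adamts5, Adamtsl3 and Mmp2 changed sign, none of them called in either fit. There were 2 calls without CaP replicate 1, CaP replicate 2 or PCL replicate 1 of week 2, and 1, Mmp12, when only the groups compared entered the fit.

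**Figure D1:**
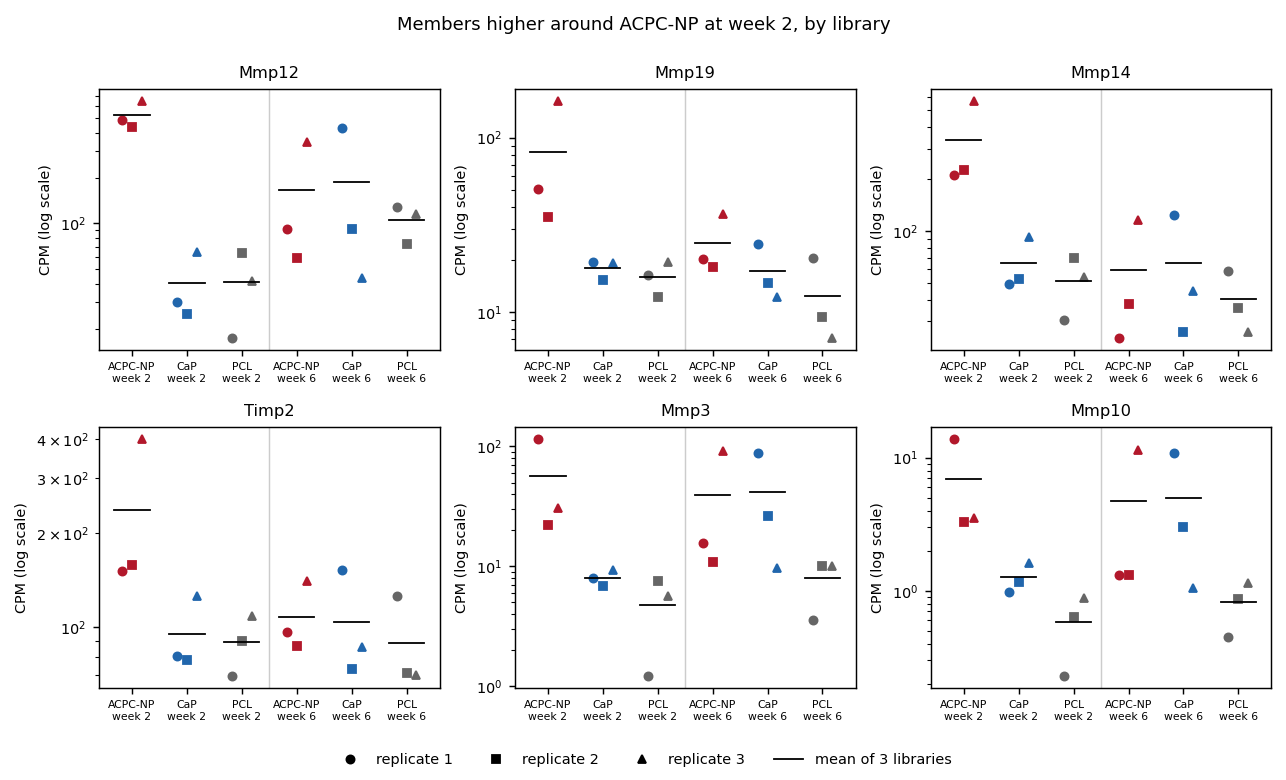
Each panel plots 1 gene, with CPM on a log scale against the 6 groups; points are libraries, shaped by replicate number, and lines are arithmetic means of 3 libraries. All 3 ACPC-NP libraries of week 2 lie above the 6 CaP and PCL libraries of that week, and Mmp3 and Mmp10 are highest in replicate 1, the other genes in replicate 3.

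Mmp12 degrades elastin and is made mainly by macrophages and osteoclasts. At week 2 it stood at 487, 438 and 651 CPM around ACPC-NP, 30.01, 25.01 and 65.1 around CaP, and 17.5, 64.1 and 41.5 around PCL. The lowest ACPC-NP library held 6.73 times the level of the highest of the others. The difference was 3.70 ± 0.65 (adjusted p = 0.0108), and 3.50 without ACPC-NP replicate 3 (adjusted p = 0.112).

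Mmp14 cleaves fibrillar collagen at the cell surface and activates pro-Mmp2. At week 2 it stood at 212, 225 and 569.6 CPM around ACPC-NP, 49.6, 52.8 and 92.7 around CaP, and 30.6, 69.7 and 54.5 around PCL. All ACPC-NP libraries were above the rest, replicate 3 most, and the difference was 2.53 ± 0.53 (adjusted p = 0.0173); it was 1.91 without replicate 3 (adjusted p = 0.311). The other membrane-type enzymes did not share it: Mmp15, Mmp16 and Mmp17 lay at -0.39, -0.69 and -0.39, and none of the 3 was called. Mmp19, a secreted enzyme that cleaves basement membrane proteins, stood at 50.7, 35.3 and 163 CPM around ACPC-NP, 19.3, 15.2 and 19.1 around CaP, and 16.2, 12.2 and 19.3 around PCL. Its lowest ACPC-NP library was 1.83 times the highest of the other 6. Its difference of 2.30 ± 0.42 (adjusted p = 0.0118) became 1.34 without replicate 3 (adjusted p = 0.245).

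The stromelysins Mmp3 and Mmp10 cleave proteoglycans, laminin and fibronectin and activate other pro-metalloproteinases. They followed another order of libraries, with the highest ACPC-NP level in replicate 1 and not in replicate 3. Mmp3 stood at 116, 21.9 and 30.9 CPM around ACPC-NP, 7.98, 6.86 and 9.31 around CaP, and 1.23, 7.52 and 5.62 around PCL. Mmp10 was at 13.9, 3.27 and 3.54 CPM around ACPC-NP, 0.987, 1.17 and 1.62 around CaP, and 0.2299, 0.634 and 0.874 around PCL. No library of CaP or PCL reached the lowest of ACPC-NP for either gene. The differences were 3.18 ± 0.76 (adjusted p = 0.0299) for Mmp3 and 3.01 ± 0.77 (adjusted p = 0.0372) for Mmp10. Without replicate 3 they were 3.46 (adjusted p = 0.18) and 3.32 (adjusted p = 0.217), no smaller than with it. Without replicate 1, their highest library, they were 2.09 (adjusted p = 0.107) and 1.99 (adjusted p = 0.137). When each of the 9 week 2 libraries was left out in turn, Mmp3 was called in 2 of 9 fits and Mmp10 in 1, whereas Mmp12 and Mmp19 were called in 8 each, Mmp14 in 5 and Timp2 in 4. Mmp3 and Mmp10 are related in sequence, and how reads that fit both were counted is not given in the sources used here. Mmp11, the third stromelysin by name, lay at -0.45 ± 0.27 (adjusted p = 0.385).

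The secreted collagenases and gelatinases, which cut and then clear fibrillar collagen, were not called at week 2. Mmp13, the main interstitial collagenase of rodent bone, stood at 256, 87.9 and 84.6 CPM around ACPC-NP, 37.9, 109 and 77.1 around CaP, and 31.7, 64.4 and 36.7 around PCL. Its high ACPC-NP library was replicate 1, as for Mmp3 and Mmp10, and the groups overlapped through CaP replicate 2. The difference was 1.31 ± 0.53 (adjusted p = 0.182), and 1.57 without replicate 3 (adjusted p = 0.535). Mmp8, the neutrophil collagenase, was at 907, 993 and 768 CPM around ACPC-NP, 1220, 957 and 1079 around CaP, and 1217, 1188 and 1071 around PCL. Its difference was -0.33 ± 0.23 (adjusted p = 0.448). Mmp2, the gelatinase that Mmp14 activates, stood at 123, 100.1 and 52.2 CPM around ACPC-NP, 65.2, 81.5 and 163 around CaP, and 66.9, 95.2 and 106 around PCL, and the ranges overlapped. Mmp9, the gelatinase of neutrophils and osteoclasts, was at 1114, 947 and 1077 CPM around ACPC-NP, 904, 739.5 and 874 around CaP, and 999, 907 and 918 around PCL. The differences of Mmp2 and Mmp9 were -0.07 ± 0.44 (adjusted p = 0.946) and 0.23 ± 0.21 (adjusted p = 0.556). Of the remaining Mmp members, Mmp23, Mmp27 and Mmp28 lay between -0.75 and -0.24, and none was called.

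Among the inhibitors, Timp2 was called, and Timp1 and Timp3 were separated from the other scaffolds without passing the threshold. Timp2 stood at 151, 158 and 402 CPM around ACPC-NP, 80.5, 78.01 and 126 around CaP, and 69.7, 89.8 and 108 around PCL. The difference was 1.37 ± 0.33 (adjusted p = 0.0293), and 0.74 without replicate 3 (adjusted p = 0.616). Timp1, an inhibitor of most secreted metalloproteinases, was at 78.8, 58.8 and 146 CPM around ACPC-NP, 29.1, 43.2 and 52.2 around CaP, and 21.7, 32.9 and 39.6 around PCL. Every ACPC-NP library exceeded the other 6, with a difference of 1.39 ± 0.43 (adjusted p = 0.0774), and 0.92 without replicate 3 (adjusted p = 0.769). Timp3, which is held in the matrix and also blocks Adamts enzymes, was at 73.3, 24.5 and 22.3 CPM around ACPC-NP, 11.8, 13.7 and 20.1 around CaP, and 7.82, 16.4 and 13.3 around PCL. It was highest in replicate 1 and differed by 1.54 ± 0.54 (adjusted p = 0.124), or 1.82 without replicate 3 (adjusted p = 0.428). Timp4 lay the other way, at -1.22 ± 0.84 (adjusted p = 0.448).

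A ratio chosen after the values were seen sets the activator pair Mmp14 and Timp2 beside each other within each library, so that library size cancels. It is not corrected for transcript length, and only its differences between libraries can be read. Around ACPC-NP at week 2 there were 1.41, 1.42 and 1.42 Mmp14 counts per Timp2 count. The ratio was 0.616, 0.677 and 0.738 around CaP and 0.439, 0.776 and 0.502 around PCL. The 3 ACPC-NP libraries thus had nearly the same ratio, although both genes were far more abundant in replicate 3 than in the other ACPC-NP libraries. At week 6 the ratio ran from 0.251 to 0.831 over all 9 libraries. No test was run on this ratio.

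**Figure D2:**
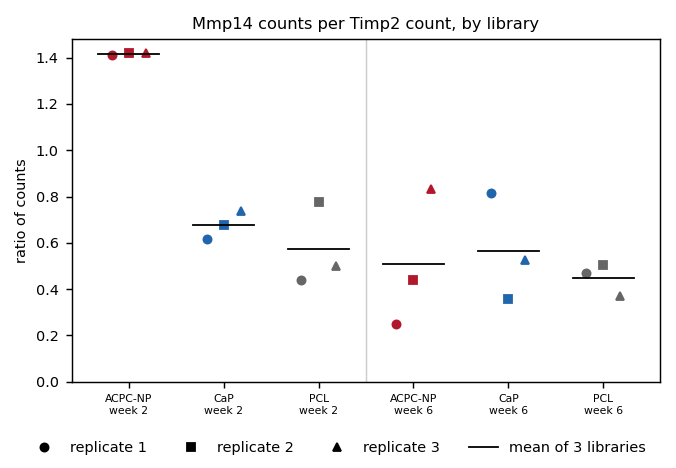
The vertical axis gives Mmp14 counts per Timp2 count and the horizontal axis the 6 groups; points are libraries and lines are means of 3. The ACPC-NP libraries of week 2 sit at 1.41 to 1.42, and all other libraries lie at or below 0.831.

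None of the 12 Adamts or 3 Adamtsl members was called at week 2 by edgeR or DESeq2. Their differences ran from -0.94 to 0.89, with 9 of 12 Adamts below 0. The proteoglycan-cleaving enzymes Adamts1, Adamts4, Adamts5, Adamts9 and Adamts15 were all below 0 but close to it, between -0.59 and -0.02. Adamts4, an aggrecan-cleaving enzyme, stood at 9.41, 14.1 and 11.7 CPM around ACPC-NP, 6.41, 10.8 and 18.9 around CaP, and 7.702, 8.79 and 18.7 around PCL. Adamts5, the other main aggrecanase, was at 1.496, 1.54 and 0.842 CPM around ACPC-NP, 1.69, 1.004 and 1.34 around CaP, and 1.07, 1.03 and 1.999 around PCL. Adamts1, which cleaves versican and aggrecan, was at 12.2, 24.3 and 16.7 CPM around ACPC-NP, 12.7, 15.7 and 28.9 around CaP, and 14.9, 18.5 and 35.6 around PCL. In these 3 genes the ACPC-NP libraries lay within or near the range of the other scaffolds. Adamts15, also a proteoglycan-cleaving enzyme, stood at 1.38, 2.96 and 1.797 CPM around ACPC-NP, 4.28, 2.01 and 5.09 around CaP, and 1.23, 1.94 and 4.33 around PCL. Adamts2, which removes the amino-terminal propeptide of procollagen, was at 35.2, 32.3 and 13.5 CPM around ACPC-NP, 19.9, 27.3 and 39.4 around CaP, and 22.3, 27.96 and 28.9 around PCL, and its lowest library was ACPC-NP replicate 3. Adamts12, which cleaves cartilage oligomeric matrix protein, was at 15.2, 10.3 and 9.38 CPM around ACPC-NP, 9.701, 4.64 and 10.02 around CaP, and 5.52, 5.58 and 8.49 around PCL. The ACPC-NP level of Adamts12 exceeded all PCL libraries but not all CaP libraries, with a difference of 0.68 ± 0.34 (adjusted p = 0.292).

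**Figure D3:**
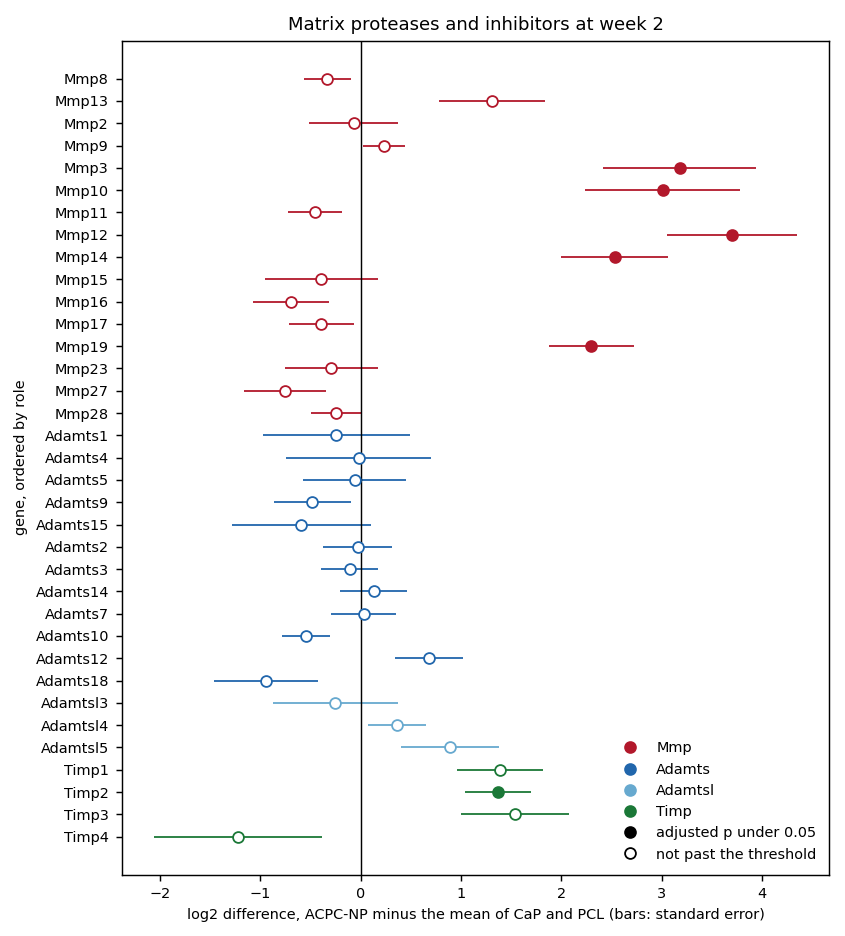
Each point is the log2 difference of 1 member, ACPC-NP minus the CaP and PCL average at week 2, with its standard error; filled points passed the threshold. The 6 filled points lie between 1.37 and 3.70, and all Adamts and Adamtsl members lie between -0.94 and 0.89 with open points.

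Each pair of scaffolds was also compared at week 2, although ACPC-NP enters both of its pairs. Neither pair with ACPC-NP gave a call by edgeR: 0 of 35 members and 0% of all genes against PCL, and likewise 0 members and 0% against CaP. An unadjusted p under 0.05 was reached by 9 members against PCL and 8 against CaP, and by 15.7% of all genes in each. DESeq2 called 7 members higher against PCL (the 6 above and Timp1) and 4 against CaP (Mmp12, Mmp14, Mmp19 and Timp2). Over all genes it called 634 against PCL and 595 against CaP. Against PCL the smallest p-values belonged to Mmp19 at 2.38 ± 0.53 (adjusted p = 0.0818), Mmp12 at 3.68 ± 0.84 (adjusted p = 0.0818), Mmp14 at 2.7 ± 0.67 (adjusted p = 0.0846), Timp2 at 1.41 ± 0.40 (adjusted p = 0.103) and Mmp3 at 3.56 ± 1.00 (adjusted p = 0.103). The same members led against CaP, with Mmp12 at 3.71 ± 0.84 (adjusted p = 0.1), Mmp19 at 2.21 ± 0.53 (adjusted p = 0.105), Mmp14 at 2.37 ± 0.66 (adjusted p = 0.121), Timp2 at 1.32 ± 0.40 (adjusted p = 0.131) and Mmp3 at 2.81 ± 0.97 (adjusted p = 0.173). All ACPC-NP libraries lay above all libraries of the other scaffold in 10 members against PCL and 9 against CaP, which 9.56% and 8.57% of all genes did. They lay below in 4 members of each pair, a direction whose share of all genes was not counted. Leaving out ACPC-NP replicate 1 gave 4 edgeR calls in each pair (Mmp12, Mmp14, Mmp19 and Timp2), and leaving out ACPC-NP replicate 2 gave 3 against PCL and 1 against CaP. Many other genes were called in these fits. Without replicate 1 there were 877 against PCL and 893 against CaP, and without replicate 2 there were 383 and 141. Leaving out ACPC-NP replicate 3 gave 0 calls in each pair, with 9 members against PCL and 6 against CaP at an unadjusted p under 0.05, where 6.26% and 5.78% of all genes were. Against PCL Mmp19 was then at 1.43, Mmp12 at 3.49, Mmp14 at 2.07, Timp2 at 0.78 and Mmp3 at 3.84, with adjusted p from 0.373 to 0.759. Against CaP the same genes were at 1.26, 3.52, 1.74, 0.70 and 3.09, with adjusted p from 0.515 to 0.883.

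No difference between the CaP and PCL scaffolds was detected in these genes at week 2. Between CaP and PCL, 0 of 35 members were called by edgeR or DESeq2 (0% of all genes), and 0 had an unadjusted p under 0.05, which 1.55% of all genes had. The smallest p-values were those of Mmp17 at -0.43 ± 0.35 (adjusted p = 1), Mmp13 at 0.75 ± 0.64 (adjusted p = 1), Adamts3 at 0.37 ± 0.32 (adjusted p = 1), Mmp10 at 1.12 ± 1.01 (adjusted p = 1) and Adamts14 at 0.40 ± 0.39 (adjusted p = 1).

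Genes that act with these proteases were called higher beside them at week 2, again for ACPC-NP against the CaP and PCL average. Of 13 lysosomal cathepsins and cystatins, 7 were called higher and 0 lower, with a median of 1.13; Ctsl, the lysosomal cathepsin L, differed by 3.93 ± 0.62 (adjusted p = 0.00805) and Lgmn, legumain, by 2.58 ± 0.43 (adjusted p = 0.00869). In the plasminogen system 3 of 10 were called higher, among them Serpinb2, an inhibitor of plasminogen activators, at 4.37 ± 0.84 (adjusted p = 0.0139) and S100a10, a plasminogen receptor subunit, at 1.25 ± 0.32 (adjusted p = 0.0385). Of the sheddases 2 of 7 were called higher, Adam9 at 1.08 ± 0.26 (adjusted p = 0.0282) and Adam17 at 0.88 ± 0.22 (adjusted p = 0.0329). Among binding partners and regulators 4 of 14 were called higher, with Lrp1, the receptor that clears protease and inhibitor complexes, at 1.97 ± 0.36 (adjusted p = 0.0118) and Sdc4, a heparan sulfate proteoglycan, at 2.63 ± 0.55 (adjusted p = 0.0173). Inducers of metalloproteinase transcription had 8 of 19 called higher, led by the cytokines Il17a at 4.31 ± 0.69 (adjusted p = 0.00816) and Il1a at 4.62 ± 0.75 (adjusted p = 0.00826). Matrix substrates had 2 of 17 higher, the proteoglycan Vcan at 2.49 ± 0.48 (adjusted p = 0.014) and osteopontin, Spp1, at 2.27 ± 0.48 (adjusted p = 0.0194). Lists count the genes that passed the low-count filter, and 4.88% of all genes were called higher in this comparison. The procollagen-processing list, with Bmp1 and the lysyl oxidases, had 0 of 13 called by edgeR or DESeq2 and 0 at an unadjusted p under 0.05; Pcsk6 had its smallest p, at -0.53 ± 0.30 (adjusted p = 0.356), then Furin at 0.15 ± 0.09 (adjusted p = 0.396). Without ACPC-NP replicate 3 none of these 7 lists had a called gene, and 8 of 13 cathepsin genes, 6 of 14 regulators, 5 of 19 inducers and 2 in each of the plasminogen, sheddase and substrate lists had an unadjusted p under 0.05. Of all genes 6.89% did in that fit. The cathepsin median was then 0.64. The genes named above from the 6 lists with calls were then between 0.31 (Adam17) and 3.09 (Il17a), with adjusted p from 0.123 to 0.777; Serpinb2 was at 1.23, Ctsl at 2.04, Lgmn at 1.42 and Il1a at 2.07, while Spp1 was at 2.38.

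Markers of cell types that make these enzymes moved in the same comparison. The marker lists hold no member, but some genes stand in a marker list and a pathway list, among them Ctsk (osteoclast and cathepsin), Col1a1 and Col1a2 (osteoblast and substrate) and Fos, Jun and Junb (stress and inducer). Of 10 osteoclast markers 7 were called higher, with a summed level of 1311, 908 and 1640 CPM around ACPC-NP, 527 to 652 around CaP and 453 to 650 around PCL. Of 10 monocyte and macrophage markers 4 were called higher, but their sum of 7681 to 9318 CPM around ACPC-NP overlapped 8348 to 9106 around CaP and 8357 to 9363 around PCL. Immediate early and stress genes had 4 of 11 called higher, and their sum was 1831, 2694 and 11240 CPM around ACPC-NP against 1265 to 3095 around CaP and 1391 to 2671 around PCL. Neutrophil markers had 1 of 9 tested called higher, where 4.88% of all genes were. No osteoblast, chondrocyte, stromal or endothelial marker was called by edgeR or DESeq2, with 1, 0, 0 and 1 at an unadjusted p under 0.05. The part of these cells in the protease differences was not tested, and in bulk tissue a larger number of cells and more RNA per cell cannot be told apart. Without replicate 3, 0 markers of these lists were called, and an unadjusted p under 0.05 was left in 8 of 10 osteoclast markers (9 with it), 2 of 10 monocyte and macrophage markers (5 with it), 1 of 11 immediate early and stress genes (9 with it) and 0 of 9 neutrophil markers (2 with it). Of all genes 6.89% had such a p without replicate 3 and 19.3% with it. The median of the stress genes was 0.16 without replicate 3 and 1.61 with it.

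At week 6 the scaffold groups overlapped in most of the genes called at week 2; Mmp3 and Mmp10 were apart only between ACPC-NP and PCL. Mmp12 stood at 92.3, 59.4 and 348 CPM around ACPC-NP, 431, 91.6 and 43.6 around CaP, and 128, 73.6 and 116 around PCL. Within both ACPC-NP and CaP 1 library was far above the other pair, by up to 9.89 times the lowest. Mmp14 was at 24.1, 38.1 and 116 CPM around ACPC-NP, 124, 26.2 and 44.98 around CaP, and 59.1, 35.7 and 26.2 around PCL, and Mmp19 was at 20.04, 18.1 and 36.7 CPM around ACPC-NP, 24.6, 14.8 and 12.2 around CaP, and 20.4, 9.38 and 7.13 around PCL. Mmp3 stood at 15.7, 10.8 and 92.2 CPM around ACPC-NP, 87.9, 26.4 and 9.77 around CaP, and 3.59, 10.2 and 10.1 around PCL, and Mmp10 at 1.32, 1.31 and 11.5 CPM around ACPC-NP, 10.9, 3.01 and 1.04 around CaP, and 0.449, 0.871 and 1.15 around PCL. ACPC-NP replicate 3 and CaP replicate 1 were the high libraries in all 5 of these enzymes. Within those 2 groups the highest library was 8.54 to 10.5 times the lowest for Mmp3 and Mmp10. Timp2 was at 96.2, 86.9 and 139.8 CPM around ACPC-NP, 152, 73.00 and 85.8 around CaP, and 126, 70.9 and 70.2 around PCL, with the same high libraries. Timp1 stood at 18.6, 17.6 and 63.03 CPM around ACPC-NP, 63.2, 19.4 and 29.7 around CaP, and 34.6, 23.2 and 22.9 around PCL. Timp3 was at 11.2, 15.03 and 69.96 CPM around ACPC-NP, 33.8, 8.76 and 26.9 around CaP, and 19.2, 14.96 and 12.4 around PCL, again highest in ACPC-NP replicate 3 and CaP replicate 1.

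No member was called between scaffolds at week 6 by edgeR. Against PCL, ACPC-NP gave 0 of 35 (0% of all genes), while 7 members and 21.9% of all genes had an unadjusted p under 0.05. DESeq2 called Adamts10 alone of the members, and 901 genes in total. Adamts10, which acts on fibrillin microfibrils, lay at -0.91 ± 0.27 (adjusted p = 0.0942); next were Mmp10 at 2.51 ± 0.98 (adjusted p = 0.156), Mmp17 at -0.89 ± 0.36 (adjusted p = 0.172), Mmp11 at -0.75 ± 0.31 (adjusted p = 0.178) and Mmp3 at 2.31 ± 0.95 (adjusted p = 0.178). Against CaP, 0 were called (0% of all genes; DESeq2 0) and 3 had an unadjusted p under 0.05, which 9.34% of all genes had. The smallest p-values there were those of Mmp17 at -1.06 ± 0.36 (adjusted p = 0.52), Mmp28 at 0.65 ± 0.29 (adjusted p = 0.521), Timp4 at 1.79 ± 0.83 (adjusted p = 0.533), Adamts18 at 1.61 ± 0.80 (adjusted p = 0.559) and Adamts10 at -0.54 ± 0.27 (adjusted p = 0.563). Against the mean of both, 0 were called (0% of all genes; DESeq2 0) and 4 had an unadjusted p under 0.05, or 11.4% of members where 20.5% of all genes did. They were Mmp17, a membrane-type enzyme with a lipid anchor, at -0.98 ± 0.32 (adjusted p = 0.131), Adamts10 at -0.72 ± 0.24 (adjusted p = 0.132), Mmp28, the metalloproteinase epilysin, at 0.67 ± 0.24 (adjusted p = 0.153) and Mmp9 at 0.46 ± 0.20 (adjusted p = 0.225), and the next was Mmp11 at -0.58 ± 0.27 (adjusted p = 0.249). Between CaP and PCL, 0 were called (0% of all genes; DESeq2 0) and 3 had an unadjusted p under 0.05, where 2.57% of all genes did. They were Adamts18 at -2.24 ± 0.76 (adjusted p = 1), Mmp10 at 2.60 ± 0.98 (adjusted p = 1) and Mmp3 at 2.38 ± 0.95 (adjusted p = 1); Adamtsl3 at -1.62 ± 0.81 (adjusted p = 1) and Adamts3 at -0.55 ± 0.32 (adjusted p = 1) followed.

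The number of calls at week 6 turned on a single library. Without PCL week 6 replicate 1, edgeR called 6 members between ACPC-NP and PCL, 3 higher and 3 lower, and also 6 against the CaP and PCL average. Adamts10, Mmp11 and Mmp17 were then lower against PCL, at -1.11, -1.08 and -1.16 (adjusted p = 0.0197, 0.0144 and 0.0448). Mmp8, Mmp9 and Mmp28 were higher, by 0.89, 0.96 and 1.01 (adjusted p = 0.0136, 0.00465 and 0.0332). The 6 are 17.1% of the members, where 15% of all genes (1787) were called against PCL and 11.2% (1335) against the average. Adamts10 stood at 14.4, 17.96 and 22.02 CPM around ACPC-NP, 28.9, 22.3 and 27.9 around CaP, and 24.6, 44.8 and 32.6 around PCL. Mmp11 was at 8.55, 9.12 and 12.5 CPM around ACPC-NP, 9.73, 13.6 and 16.7 around CaP, and 8.696, 20.3 and 21.9 around PCL, and Mmp17 was at 0.513, 0.587 and 0.729 CPM around ACPC-NP, 1.25, 0.828 and 1.76 around CaP, and 0.694, 1.504 and 1.19 around PCL. PCL replicate 1 was the lowest library of its group in all 3, and the one with the highest summed level of neutrophil markers, 34940 CPM against 14120 and 19900.

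From week 2 to week 6, membrane-type Mmp16, the integral membrane enzyme Mmp23 and Adamts18 fell in the mean over all scaffolds. In the mean of the 3 scaffolds 3 of 35 members were called lower and 0 higher, where 0.686% of all genes were called and 0.508% were lower. DESeq2 called 5: the same 3 and Adamts2 lower, and Timp4 higher. Over all genes it called 382. At week 2 Mmp16 stood at 3.23, 3.79 and 1.57 CPM around ACPC-NP, 4.36, 3.81 and 5.798 around CaP, and 3.296, 6.42 and 4.16 around PCL, and at week 6 at 0.855, 0.948 and 1.35 CPM around ACPC-NP, 1.04, 1.48 and 2.704 around CaP, and 1.31, 2.93 and 1.15 around PCL. It was lower in each scaffold, with no overlap of the weeks within any of them, and lay at -1.41 ± 0.26 (adjusted p = 0.0256) in the mean. Mmp23 stood at 2.598, 2.997 and 1.35 CPM around ACPC-NP, 1.89, 2.38 and 3.83 around CaP, and 2.38, 3.801 and 2.87 around PCL at week 2. At week 6 it was at 0.385, 0.542 and 1.98 CPM around ACPC-NP, 0.869, 0.566 and 0.949 around CaP, and 1.27, 1.35 and 0.467 around PCL, a difference of -1.53 ± 0.32 (adjusted p = 0.0459). Only around ACPC-NP did the weeks overlap for Mmp23, through its replicate 3 at both times. Adamts18, an Adamts enzyme of few known substrates, was near the limit of detection, with 5 to 41 counts per library at week 2 and 0 to 12 at week 6. At week 2 it stood at 0.512, 0.749 and 0.281 CPM around ACPC-NP, 0.534, 1.13 and 1.104 around CaP, and 0.4598, 1.62 and 1.21 around PCL, and at week 6 at 0.171, 0.451 and 0.156 CPM around ACPC-NP, 0.104, 0 and 0.142 around CaP, and 0.327, 0.475 and 0.425 around PCL, a difference of -1.93 ± 0.38 (adjusted p = 0.0369). These calls were not firm: leaving out single libraries gave between 0 and 7 called members, with 0 when CaP week 2 replicate 2 or 3, CaP week 6 replicate 1 or 2, ACPC-NP week 2 replicate 2, ACPC-NP week 6 replicate 1, PCL week 2 replicate 3 or PCL week 6 replicate 3 was left out, and 7 without ACPC-NP week 6 replicate 3 (the same 3 with Adamts2, Adamts4, Adamts15 and Mmp2). A single call was left without ACPC-NP week 2 replicate 1, ACPC-NP week 6 replicate 2, PCL week 2 replicate 2, or PCL week 6 replicate 1 or 2. The direction was the same in all these fits. Without ACPC-NP week 2 replicate 3 there were 4 calls, these 3 and Adamts2 at -1.0 (adjusted p = 0.0352).

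**Figure D4:**
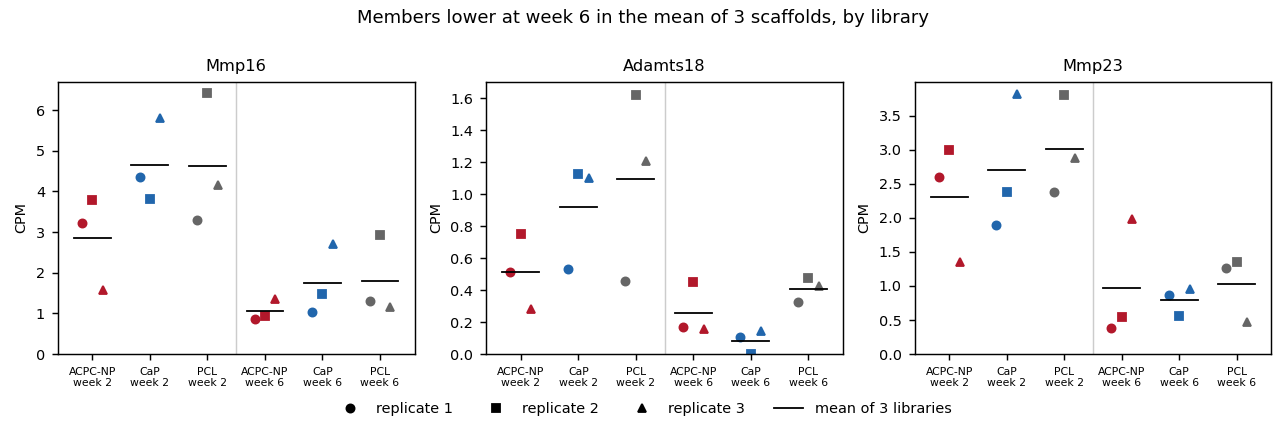
Each panel plots CPM of 1 gene on a linear axis from 0 against the 6 groups, week 2 left of the vertical line and week 6 right of it; points are libraries and lines are means of 3. All 3 group means of each gene are lower at week 6, and Adamts18 is at 0 in CaP week 6 replicate 2.

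Of the 32 members not called in the mean of the 3 scaffolds, 18 were below 0 (56.2%), as were 55.5% of all genes. Over all 35 the median was -0.34 against -0.02 for all genes. An unadjusted p under 0.05 was reached by 15 of the 35 (42.9%), called or not, and by 14.6% of all genes. Without ACPC-NP week 2 replicate 3 it was reached by 14 members and 16.9% of all genes. The procollagen propeptidase Adamts2 lay at -0.90 ± 0.23 (adjusted p = 0.106). At week 6 it stood at 7.26, 10.7 and 19.1 CPM around ACPC-NP, 20.7, 12.3 and 24.4 around CaP, and 17.2, 13.9 and 9.51 around PCL. The proteoglycan-cleaving group lay below 0 in 5 of 5, from Adamts15 at -1.43 to Adamts1 at -0.22, none called. Adamts15 stood at 0.256, 0.271 and 2.86 CPM around ACPC-NP, 1.25, 0.566 and 0.854 around CaP, and 1.63, 1.03 and 0.297 around PCL at week 6. Adamts1 was at 4.74, 4.02 and 65.1 CPM around ACPC-NP, 12.6, 3.79 and 17.3 around CaP, and 24.00, 18.8 and 10.7 around PCL, Adamts4 was at 2.09, 1.49 and 25.7 CPM around ACPC-NP, 4.73, 1.48 and 6.41 around CaP, and 12.9, 10.7 and 4.92 around PCL and Adamts5 was at 0.513, 0.587 and 1.98 CPM around ACPC-NP, 2.29, 0.741 and 0.807 around CaP, and 1.51, 0.713 and 0.467 around PCL. In all 4 of these genes, ACPC-NP replicate 3 was the highest of its week 6 group by a wide margin. Adamts12 stood at 3.33, 3.79 and 9.01 CPM around ACPC-NP, 8.24, 4.57 and 5.55 around CaP, and 6.25, 5.27 and 3.27 around PCL. Mmp13 was at 17.9, 29.9 and 74.4 CPM around ACPC-NP, 45.9, 11.2 and 57.2 around CaP, and 20.8, 38.8 and 38.8 around PCL, and Mmp2 was at 22.3, 32.6 and 81.5 CPM around ACPC-NP, 71.3, 29.9 and 65.4 around CaP, and 71.9, 50 and 29.1 around PCL, with differences of -1.07 ± 0.37 (adjusted p = 0.203) and -0.91 ± 0.29 (adjusted p = 0.182). The inhibitor Timp4 lay in the other direction, at 1.86 ± 0.51 (adjusted p = 0.126).

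Genes of the matrix that these enzymes act on lay below 0 at week 6 as well, 17 of 17, with 2 called lower and 0 higher: Col5a1 at -1.42 ± 0.27 (adjusted p = 0.0344) and Col1a1, the main collagen of bone, at -1.23 ± 0.24 (adjusted p = 0.035). In this comparison, the mean of 3 scaffolds, 55.5% of all genes lay below 0. Of all genes 0.686% were called, and 0.508% were called lower. Procollagen processing had 2 of 13 lower, the collagen cross-linking enzyme Lox at -1.77 ± 0.28 (adjusted p = 0.017) and Bmp1, which removes the carboxy-terminal propeptide, at -0.73 ± 0.13 (adjusted p = 0.0256). Among regulators 1 of 14 was lower, Thbs2 at -1.81 ± 0.37 (adjusted p = 0.0433); Bsg was at -0.59 ± 0.20 (adjusted p = 0.196). The cathepsin, plasminogen, inducer and sheddase lists had no gene called by edgeR, and DESeq2 called 1 inducer. These lists had 3 of 13, 3 of 10, 3 of 19 and 0 of 7 genes at an unadjusted p under 0.05, where 14.6% of all genes were. Their smallest p-values were those of Ctsl at -1.20 ± 0.42 (adjusted p = 0.215) and Ctsk at -0.95 ± 0.36 (adjusted p = 0.242), Plgrkt at -0.53 ± 0.16 (adjusted p = 0.154) and Serpinf2 at 0.77 ± 0.28 (adjusted p = 0.223), Il17a at -1.93 ± 0.59 (adjusted p = 0.162) and Il1a at -1.62 ± 0.51 (adjusted p = 0.178), and Adam9 at -0.33 ± 0.18 (adjusted p = 0.406) and Adam17 at -0.25 ± 0.15 (adjusted p = 0.446). Osteoblast markers were below 0 in 10 of 10 with 1 called, and their summed level was 7914 to 26340 CPM at week 2 and 4700 to 14450 at week 6. Skeletal muscle markers lay the other way, 9 of 9 above 0 with 2 called, and their sum went from 27.2 to 94.9 CPM at week 2 to 69.5 to 695 at week 6. Without ACPC-NP week 2 replicate 3, 4 osteoblast, 3 processing and 0 muscle genes were called, as were 111 of all 11943 genes (0.929%). Col5a1, Col1a1, Lox, Bmp1 and Thbs2 were all called in that fit, between -1.87 and -0.78, while Ctsl was at -0.56 and Il1a at -0.76. The part of these cells in the lower levels of the 3 proteases was not tested.

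Within single scaffolds, no member was called between the weeks by edgeR. Around ACPC-NP 0 of 35 were called, as against 0.00846% of all genes, which is 1 gene; 14 members and 19.8% of all genes had an unadjusted p under 0.05. DESeq2 called 5 members there, Mmp14, Mmp16, Mmp19 and Timp1 lower and Timp4 higher, and 785 genes in total. Timp4 differed by 3.59 ± 0.94 (adjusted p = 0.0921), Mmp14 by -2.50 ± 0.67 (adjusted p = 0.0936), Mmp19 by -1.73 ± 0.52 (adjusted p = 0.112), Mmp16 by -1.45 ± 0.46 (adjusted p = 0.124) and Timp1 by -1.51 ± 0.52 (adjusted p = 0.143). Timp4 was highest in ACPC-NP week 6 replicate 3, with levels of 2.35, 0.587 and 10.6 CPM after 0.394, 0.316 and 0.393 at week 2. In 8 members all week 6 libraries around ACPC-NP lay below all of week 2, which 9.3% of all genes did. Leaving out ACPC-NP week 2 replicate 1 gave 2 calls, Mmp14 and Mmp19, both lower. Over all genes that fit called 882, of which 739 were lower. Leaving out ACPC-NP week 2 replicate 3 gave 0 calls, with 10 members and 10% of all genes at an unadjusted p under 0.05. Mmp19 was then at -0.77 (adjusted p = 0.569), Mmp14 at -1.86 (adjusted p = 0.378), Timp1 at -1.04 (adjusted p = 0.551), Mmp16 at -1.72 (adjusted p = 0.293) and Timp4 at 3.65 (adjusted p = 0.337).

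Around CaP 0 members were called (0% of all genes), while 8 had an unadjusted p under 0.05, as did 4.82% of all genes. DESeq2 called Adamts18 lower, and 5 genes in total. The smallest p-values were those of Adamts18 at -3.41 ± 0.73 (adjusted p = 0.87), Mmp16 at -1.42 ± 0.44 (adjusted p = 0.953), Mmp23 at -1.76 ± 0.55 (adjusted p = 0.953), Mmp12 at 2.24 ± 0.79 (adjusted p = 0.953) and Adamtsl5 at 1.62 ± 0.59 (adjusted p = 0.953). Lower CPM without overlap was seen in 8 members and in 7.93% of all genes. Around PCL 0 were called (0% of all genes; DESeq2 0), while 5 had an unadjusted p under 0.05, as did 9.87% of all genes. These were Mmp16 at -1.36 ± 0.44 (adjusted p = 0.391), Mmp23 at -1.55 ± 0.54 (adjusted p = 0.433), Adamts3 at 0.81 ± 0.32 (adjusted p = 0.455), Adamts2 at -0.96 ± 0.40 (adjusted p = 0.476) and Adamts18 at -1.41 ± 0.59 (adjusted p = 0.476). Lower CPM without overlap was seen in 3 members and in 6.7% of all genes.

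Whether the scaffold differences themselves changed between the weeks was tested as an interaction. No member was called in any of the 3 interactions by edgeR, and 0% of all genes were called in each. An unadjusted p under 0.05 was reached by 3 members for ACPC-NP minus PCL, 8 for ACPC-NP minus CaP and 0 for CaP minus PCL, or 8.57%, 22.9% and 0% of members, where 15%, 14.2% and 1.68% of all genes did. For ACPC-NP minus CaP, DESeq2 called Mmp12 (adjusted p = 0.0495), its only member call in an interaction, and 192 genes in total. By edgeR Mmp12 had the smallest p there, at -3.89 ± 1.11 (adjusted p = 0.252). Mmp14 at -2.50 ± 0.91 (adjusted p = 0.288), Adamts18 at 2.42 ± 0.99 (adjusted p = 0.321), Mmp28 at 0.98 ± 0.41 (adjusted p = 0.329) and Timp4 at 2.94 ± 1.25 (adjusted p = 0.339) followed. For ACPC-NP minus PCL the values were -3.03 ± 1.10 (adjusted p = 0.278) for Mmp12, -2.14 ± 0.90 (adjusted p = 0.309) for Mmp14, 0.82 ± 0.37 (adjusted p = 0.326) for Mmp8, 0.83 ± 0.41 (adjusted p = 0.349) for Mmp28 and -1.13 ± 0.55 (adjusted p = 0.349) for Timp2. Both interactions share the ACPC-NP libraries. For CaP minus PCL the smallest p-values were those of Adamts18 at -2.0 ± 0.94 (adjusted p = 1), Adamts3 at -0.92 ± 0.45 (adjusted p = 1), Adamts10 at -0.59 ± 0.38 (adjusted p = 1), Mmp3 at 1.63 ± 1.32 (adjusted p = 1) and Mmp17 at 0.60 ± 0.49 (adjusted p = 1). Without ACPC-NP week 2 replicate 3, 1 member for ACPC-NP minus PCL and 2 for ACPC-NP minus CaP had an unadjusted p under 0.05, and Mmp12 was at -2.82 (adjusted p = 0.593) and -3.71 (adjusted p = 0.499). Mmp14 was then at -1.50 and -1.88, and Timp2 for ACPC-NP minus PCL at -0.49 (adjusted p = 0.761). The interaction for ACPC-NP against the CaP and PCL average was not tested.

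Mmp8 and Mmp9, which held over 50% of the members' reads in every library but ACPC-NP week 2 replicate 3, were not called in any comparison of all libraries by edgeR or DESeq2. At week 6 Mmp8 stood at 1555, 1684 and 1149 CPM around ACPC-NP, 952, 1154 and 1268 around CaP, and 1676, 634 and 929 around PCL. Mmp9 was at 1270, 1360 and 1105 CPM around ACPC-NP, 955, 863 and 1050 around CaP, and 1322, 506 and 757 around PCL. Both were lowest in PCL replicate 2, at 634 and 506 CPM, and highest in ACPC-NP replicate 2. The summed level of 10 neutrophil markers in the same libraries was 36600, 34360 and 25490 CPM around ACPC-NP, 19590, 21110 and 26360 around CaP, and 34940, 14120 and 19900 around PCL. The library lowest in both enzymes was also lowest in neutrophil markers, and the 3 libraries highest in Mmp8 had the 3 highest marker sums. The part of neutrophil number in these levels was not tested.

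**Figure D5:**
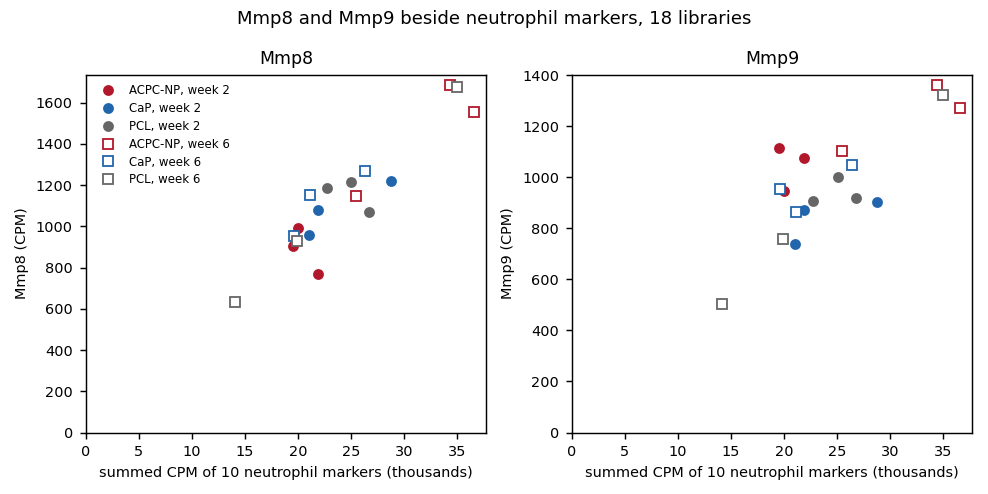
Each point is 1 of the 18 libraries, with the summed CPM of 10 neutrophil markers on the horizontal axis and the CPM of Mmp8 or Mmp9 on the vertical axis; filled circles are week 2 and open squares week 6. The 3 libraries to the right, ACPC-NP week 6 replicates 1 and 2 and PCL week 6 replicate 1, are the highest in both genes.

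The members not given by library above covered wide ranges but few differences. Among Adamts, the medians over 18 libraries were 18.4 CPM for the procollagen propeptidase Adamts3, 3.16 for Adamts14, 4.87 for Adamts9 and 14.7 for Adamts7. At week 6 Adamts7, singled out after its values were seen, was lower in all 3 ACPC-NP libraries than in any CaP or PCL library, at -0.65 ± 0.33 (adjusted p = 0.289). Adamts10 was separated in the same way but narrowly, with its highest ACPC-NP library at 22.02 CPM and the lowest of the others at 22.3. These were 2 of 35 members. The share of all genes was not counted, so that number cannot be judged. Among Mmp, Mmp15, Mmp17, Mmp27 and Mmp28 had medians of 3.36, 0.855, 1.23 and 6.04 CPM. The Adamtsl proteins, which bind the matrix without cleaving it, had medians of 0.343 for Adamtsl3, 6.24 for Adamtsl4 and 2.2 CPM for Adamtsl5, and none was called in any comparison by edgeR. CaP week 2 replicate 3 held the highest level of 8 members, the most of any library, and ACPC-NP week 6 replicate 1 the lowest level of 9.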

How the data were processed

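Per the labels, polyadenylated RNA of 18 rat libraries was sequenced after an Illumina mRNA preparation. Per the submitters' processing notes, bcl2fastq 2.20.0, STAR 2.7.9a, featureCounts and Subread 2.0.1 were used with build Rnor_6.0; the annotation, strand setting and any filter were not stated there or in the labels. The authors deposited read counts per gene symbol and normalised values with the unit signal, which equal the count divided by 1 size factor per library and served only to read those factors. The counts were tested with edgeR 4.0.16 in R 4.3.3: filterByExpr (minimum count 10, minimum total 15; 11814 genes, 99.98% of counts), TMM, a robust quasi-likelihood fit with a term per group over all 18 libraries, and Benjamini-Hochberg adjustment over all genes in each of 15 comparisons, threshold 0.05. CPM use TMM library sizes. Differences are log2 fold changes ± standard error. This error was derived from the test, as the size of the difference divided by the square root of its F statistic. Levels were not compared between genes, since no transcript length was used. The common biological coefficient of variation was 26.0%. No libraries of a group were duplicates (lowest chi-square per degree of freedom 30.5). The fit was also run on simulated counts drawn without an outlying library. That run does not cover the effect of ACPC-NP week 2 replicate 3.

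The members, gene lists and comparisons were chosen with earlier results of these data known. Named were, in each comparison, members past the threshold and the 5 with the smallest p, a fixed panel by library (of it, Mmp25 was not analysed here), and the 2 genes with the smallest p of each pathway list in the comparisons for which lists are given. Alternatives were DESeq2 1.42.0, its size factors in edgeR, no filter, fits restricted to the groups compared, a block for the replicate number, and each library left out in turn. The lists and the counts of unadjusted p without ACPC-NP week 2 replicate 3, and the shares of all genes without PCL week 6 replicate 1, were added after seeing the data. All 35 members matched the RefSeq table of GRCr8, used for names, order and promoters.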

Additional observations from a re-analysis of the deposited data

How the results depend on the processing

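Among members past the threshold or with the 5 smallest p of a comparison, none changed sign there under any alternative. Some other members did. Among them were Adamts2, Adamts5, Adamtsl3 and Mmp2 for ACPC-NP against the CaP and PCL average at week 2, without ACPC-NP replicate 3. With DESeq2's size factors in edgeR or with no filter on low counts, every comparison had the same number of called members as in the report. DESeq2 called more: 7 members for ACPC-NP against PCL and 4 against CaP at week 2, 1 for ACPC-NP against PCL at week 6, 5 for week 6 against week 2 around ACPC-NP, 1 around CaP and 5 in the mean of 3 scaffolds, and 1 in the change of ACPC-NP minus CaP. With only the groups compared in the fit, 1 member in place of 6 was called for ACPC-NP against the CaP and PCL average at week 2. Leaving out 1 library at a time gave 0 to 4 called members for ACPC-NP against PCL and 0 to 4 against CaP at week 2, 0 to 7 against their mean at week 2, 0 to 6 against PCL and 0 to 6 against the mean at week 6, 0 to 2 for the weeks around ACPC-NP, and 0 to 7 for the weeks in the mean of 3 scaffolds. The cause of these changes was not tested, and each left-out fit also held fewer libraries.

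Counts over all genes moved more: for ACPC-NP against the mean at week 2, 590 became 1019 with DESeq2, 239 with the replicate block, 4 with only the groups compared, and 10 to 1363 with 1 library left out. For the weeks in the mean of 3 scaffolds, 81 became 382 with DESeq2 and 49 with the block. Where edgeR called none, DESeq2 called 634 genes against PCL and 595 against CaP at week 2, 901, 23 and 662 for ACPC-NP against PCL, CaP and their mean at week 6, and 785 for the weeks around ACPC-NP (edgeR 1). It called 5 and 36 for the weeks around CaP and PCL, and 137, 192 and 2 in the changes of ACPC-NP minus PCL, ACPC-NP minus CaP and CaP minus PCL. At week 6 the block gave 427 genes against PCL and 49 against the average, and fits of only the groups compared gave 317 against the average and 1 against CaP. With the replicate number as a block, 4 members were called for ACPC-NP against the mean at week 2 (Mmp3 at 3.06, adjusted p = 0.076, and Mmp10 at 2.95, adjusted p = 0.0774, were lost) and 2 for the weeks in the mean (Mmp23, adjusted p = 0.0641, was lost), and no other member call changed. The labels do not say that numbers pair libraries: deviations of same-numbered libraries correlated between -0.33 and 0.42, and 8 of 18 libraries correlated best with one of their own number. Depth limits the members of few counts, such as Adamts18 at 0 to 41 counts per library.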
